A study of Arabidopsis thaliana with 9 samples.

Results

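The genes described here drive or restrain the plant cell cycle, and their RNA was followed in the apical hook, the bend below the cotyledons of etiolated Arabidopsis thaliana seedlings. They were the cyclins of types A, B and D, the cyclin-dependent kinases CDKA;1 and CDKB, the MCM and PCNA replication proteins, the cytokinesis syntaxin KNOLLE, RBR1, E2FA and E2FB, the Aurora kinases AUR1 and AUR2, the CDC20 activators, and the inhibitors KRP1, KRP2 and SIM. Of 41 genes listed by their function, 39 were in a table of 16383 genes. MCM6 and CYCA1;1 were not analysed here. The 39 comprised 8 S-phase genes, 18 mitotic genes, 10 genes of G1 control and 3 inhibitors of cyclin-dependent kinases.

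RNA came from 3 genotypes with 3 libraries each, described in the labels as biological triplicates. They were the accession Col-0 (WT), tmk1-1 (tmk1), a mutant of a transmembrane kinase of auxin signalling, and iaa32iaa34, a double mutant in a pair of non-canonical Aux/IAA repressors whose alleles the labels do not give. All seedlings were 45 h old and had been kept in darkness at 22 °C. About 50 hooks, each near 2 mm long and cut without cotyledons, went into every sample, so a library averages over many plants and over all cell types of the hook. Where a level is lower, fewer cells of a type and less RNA per cell cannot be told apart.

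In plants, D-type cyclins bind CDKA;1 and phosphorylate RBR1, the retinoblastoma-related protein, which releases E2F factors to activate S-phase genes. Genes of G2 and mitosis are a separate wave, controlled by MYB3R factors that bind a short MSA (mitosis-specific activator) element. KRP and SIM proteins inhibit the kinases, and SIM-type inhibitors are known for promoting endoreduplication, in which DNA is copied without division. Hook cells are largely elongating cells, and a hook cut can hold dividing cells near the shoot apex.

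The promoters of S-phase and mitotic genes differed in these elements. Upstream sequence is printed as examples, for genes chosen because it held a match. CYCA2;3, CYCB2;4 and CYCD1;1, described below, held no match in the 250 bases before their start. Sequences were read by locus identifier from the RefSeq genome, build TAIR10.1, as the bases just before the annotated gene start, 5′ to 3′ on the gene's strand. The build behind the expression values is not given in the sources used here. Capitals in the next 4 promoters mark an E2F core on either strand, which is TTCCCGC or its variant TTCCCGG, and also TTGGCGC or its variant TTGGCGG. Matches may overlap one another, as they do in MCM2 and MCM3. The 100-base windows were MCM2 chr1:16970114-16970213, plus strand, MCM3 chr5:18773707-18773806, minus strand, MCM4 chr2:7130730-7130829, minus strand, and MCM5 chr2:3527501-3527600, minus strand.
MCM2: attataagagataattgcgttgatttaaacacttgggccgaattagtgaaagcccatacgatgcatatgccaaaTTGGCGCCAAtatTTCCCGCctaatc
MCM3: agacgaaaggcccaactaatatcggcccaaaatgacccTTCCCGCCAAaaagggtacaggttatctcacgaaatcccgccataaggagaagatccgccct
MCM4: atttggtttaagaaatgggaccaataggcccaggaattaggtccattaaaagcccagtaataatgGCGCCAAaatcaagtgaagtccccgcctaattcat
MCM5: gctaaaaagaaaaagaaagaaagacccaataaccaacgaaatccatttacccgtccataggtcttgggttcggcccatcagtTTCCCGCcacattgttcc

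For B-type cyclins, the activators of mitotic kinases, capitals mark the MSA core AACGG on either strand, which reads CCGTT when on the opposite strand. The 100-base windows were CYCB1;1 chr4:17624309-17624408, minus strand, CYCB1;2 chr5:1861704-1861803, minus strand, CYCB1;3 chr3:3627274-3627373, minus strand, and CYCB2;3 chr1:7137829-7137928, minus strand.
CYCB1;1: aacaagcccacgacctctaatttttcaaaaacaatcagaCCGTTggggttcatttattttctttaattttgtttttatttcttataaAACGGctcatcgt
CYCB1;2: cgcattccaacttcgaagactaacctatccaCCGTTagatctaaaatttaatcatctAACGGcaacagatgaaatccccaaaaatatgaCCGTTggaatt
CYCB1;3: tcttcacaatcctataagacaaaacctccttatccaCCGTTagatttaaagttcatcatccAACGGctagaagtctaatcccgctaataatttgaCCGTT
CYCB2;3: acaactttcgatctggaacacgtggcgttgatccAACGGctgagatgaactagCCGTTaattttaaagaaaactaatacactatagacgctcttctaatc

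RBR1 carried 1 match of each kind within 100 bases, and KRP1 carried 5 MSA cores within 140 bases and a further 1 upstream. The windows were RBR1 chr3:3919360-3919459, minus strand, and KRP1 chr2:9978091-9978230, minus strand, with both cores in capitals.
RBR1: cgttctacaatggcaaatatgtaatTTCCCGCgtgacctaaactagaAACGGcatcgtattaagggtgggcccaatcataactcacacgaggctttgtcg
KRP1: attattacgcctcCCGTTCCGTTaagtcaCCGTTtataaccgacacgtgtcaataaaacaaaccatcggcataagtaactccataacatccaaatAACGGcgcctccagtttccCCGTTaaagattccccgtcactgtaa

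Over the 250 bases before the gene start, 5 of 8 S-phase promoters (62.5%) held an E2F core, against 3.98% of the 16240 promoters of measured genes found in the annotation. None of the 18 mitotic promoters held one. An MSA core was in 10 of 18 mitotic promoters (55.6%), against 22.2% of all promoters, and a stricter form (CCAACGG or CTAACGG) was in 33.3% against 3.09%. S-phase promoters held an MSA core at 25.0%, close to the share of all promoters. Other replication genes, listed by function in the same way, had an E2F core in 39.1% of 23 promoters, and other mitotic genes had an MSA core in 61.1% of 18. A match is a run of letters and does not show that a factor bound it.

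**Figure D1:**
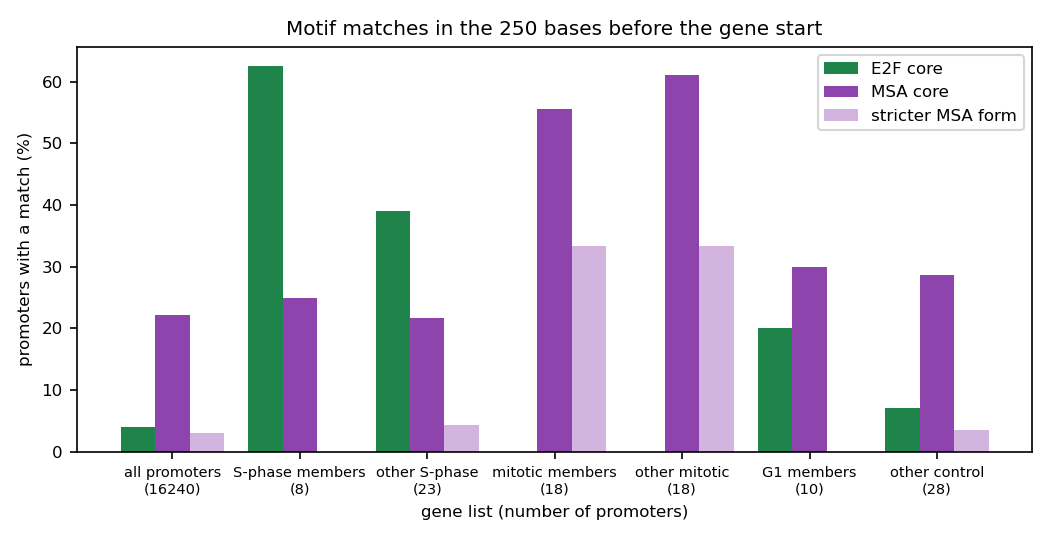
Share of promoters (%, y axis) with at least 1 match in the 250 bases before the gene start, for all promoters and for each gene list (x axis, number of promoters in brackets); bars are E2F core, MSA core and the stricter MSA form. E2F cores reach 62.5% in the S-phase genes and are absent from the 18 mitotic promoters, whereas MSA cores reach 55.6% in mitotic genes.

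Levels are read counts scaled to library size (CPM). Read totals were not given and were inferred from the step between low CPM values. On that basis libraries held 10077093 to 13601488 reads, so that 1 CPM stood for 10.1 to 13.6 reads. The median member value rested on 141 reads, the lowest on 5 reads (CYCB2;1), and no member was at 0. The mutant labels were checked on the targeted genes. TMK1 was at 387 to 469 CPM in WT and 26.8 to 45.4 in tmk1, and IAA32 was at 43.0 to 55.3 in WT and 6.44 to 10.5 in iaa32iaa34. IAA34 was not analysed here. Hook marker genes were present, their sum being 2853 to 3170 CPM for WT, 2406 to 2906 for tmk1 and 2382 to 3370 for iaa32iaa34, and none of the 5 was at 0. All 9 libraries entered 1 linear model (limma on log2(CPM + 1)), with Benjamini-Hochberg adjustment over all 16383 genes and a threshold of 0.05. The tmk1 and iaa32iaa34 comparisons share their WT libraries.

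Per kilobase of transcript, the cell cycle machinery was unevenly represented in WT hooks. The inhibitor SIM was at 120 CPM per kb, CDKA;1, the main cell cycle kinase, at 49.7, and the D cyclins CYCD1;1 and CYCD3;2 at 43.0 and 41.2. KRP2, another kinase inhibitor, was at 40.3. PCNA2, the sliding clamp of DNA polymerase, reached 26.2, KNOLLE, which acts in cell plate fusion, 22.0, and the helicase subunit MCM2 9.05. At the low end were CYCB1;1, widely used to mark cells in G2 and M, at 1.76 CPM per kb, and CYCB2;1 at 0.889. Antisense genes overlap 31.4% of SIM, 33.5% of KNOLLE and 23.6% of PCNA2 exon sequence. The strand setting of the counting is not given, so the places of these genes in the order are uncertain.

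No cell cycle gene of the 39 passed the threshold in any of the 3 comparisons by limma. Among all genes the share called was 0.317% for tmk1 against WT (0.195% lower, 0.122% higher). It was 0.153% for iaa32iaa34 against WT (0.0732% lower, 0.0794% higher) and 0.0549% for tmk1 against iaa32iaa34 (0.0244% lower, 0.0305% higher). At an unadjusted p under 0.05, 2 members were lower (CYCA2;3 and CYCD1;1) and 1 was higher (KRP1) in tmk1, beside 11.7% and 9.65% of all genes. In iaa32iaa34, 9 members were lower and 0 higher, beside 10.4% and 6.17% of all genes. Between the mutants 1 was lower and 2 were higher in tmk1, beside 3.94% and 4.18%. The values below describe levels and directions that did not reach that threshold.

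**Figure D2:**
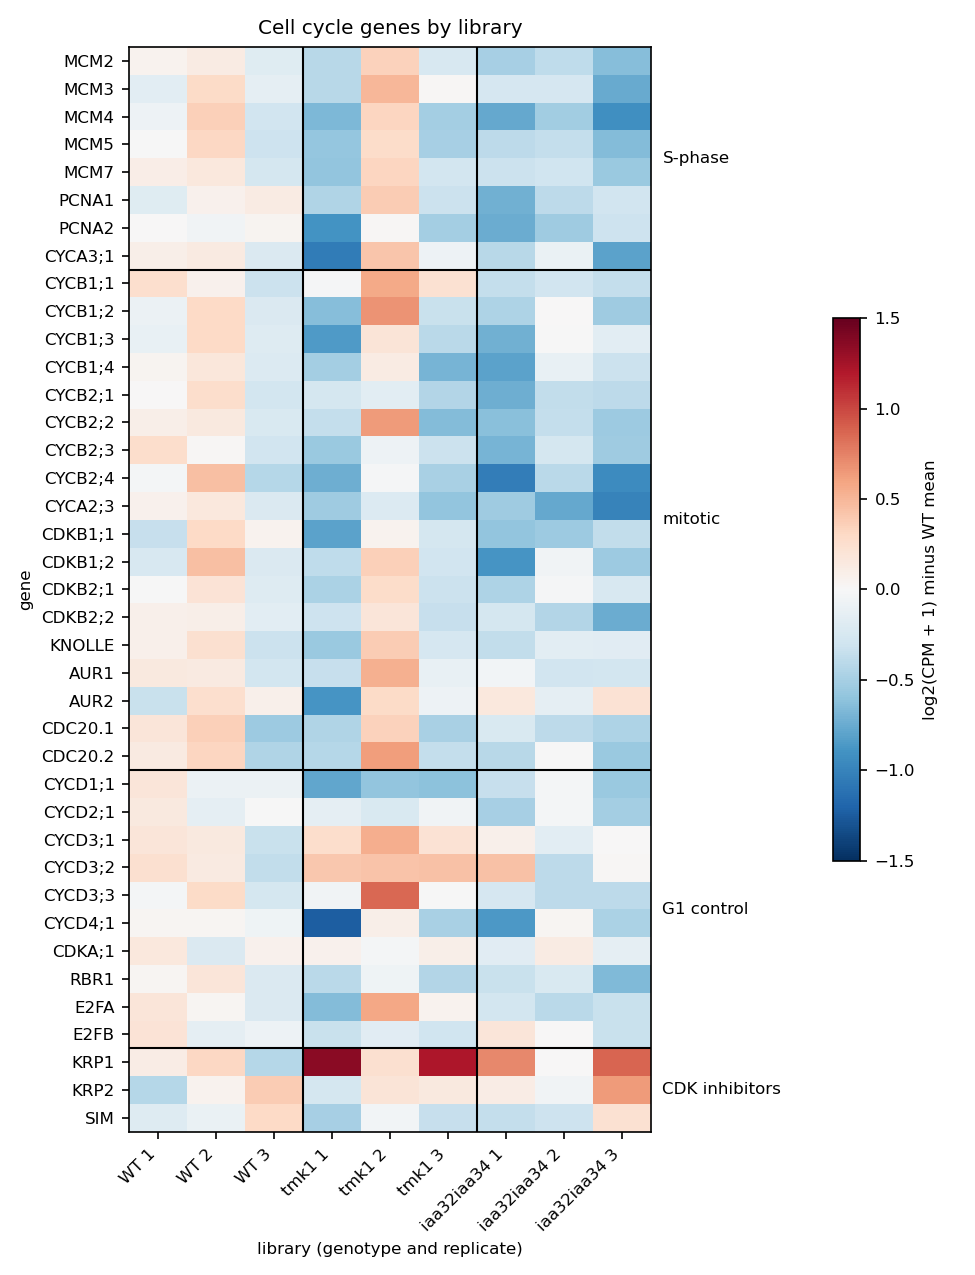
Each row is 1 of the 39 genes and each column 1 library; colour is log2(CPM + 1) minus the WT mean of that gene (blue lower, red higher). The S-phase and mitotic rows are mostly blue in the iaa32iaa34 columns and in tmk1 1 and tmk1 3, and mostly red in tmk1 2.

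In iaa32iaa34 hooks both waves of the cycle were read at lower levels than in WT. All 8 S-phase genes had a lower mean, with a median log2 difference of -0.47 (range -0.73 to -0.39), and 17 of 18 mitotic genes did, with a median of -0.38 (range -0.80 to 0.08). The median over all genes was -0.058, and 58.2% of all genes were below 0. The exception was AUR2, a mitotic kinase, whose difference ranged from -0.08 to 0.32 over the alternative settings. For 7 of the 8 S-phase genes and 5 of the 18 mitotic genes, every iaa32iaa34 library was below every WT library, which was so for 14.6% of all genes. None of the 39 was above every WT library there, as 6.54% of all genes were. Genes of 1 wave tend to move together within a library, so these counts are not independent observations.

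Among S-phase genes, MCM4 (AT2G16440), a subunit of the replicative helicase, was at 26.2, 36.0 and 22.6 CPM in WT, 17.0, 35.0 and 19.2 in tmk1, with 15.9, 19.1 and 14.2 in iaa32iaa34. All 3 iaa32iaa34 libraries lay below all 3 WT libraries, while tmk1 spanned both. The log2 difference was -0.73 ± 0.26 (SE) in iaa32iaa34, with a limma adjusted p of 0.227, and -0.29 ± 0.26 in tmk1 (adjusted p = 0.562). MCM2 (AT1G44900), of the same helicase, was at 29.6, 31.1 and 25.1 CPM in WT, 21.1, 36.5 and 24.0 in tmk1, with 19.9, 21.6 and 18 in iaa32iaa34. In tmk1 its highest library was above every WT library and its other libraries were below every one. The log2 difference was -0.50 ± 0.19 in iaa32iaa34 (limma adjusted p = 0.249) and -0.10 in tmk1 (adjusted p = 0.806), and the latter was 0.06 without tmk1 replicate 1.

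PCNA2 (AT2G29570) was at 31.2, 30.0 and 32.0 CPM in WT, 16.2, 31.4 and 21.5 in tmk1, with 18.2, 21.2 and 24.8 in iaa32iaa34. WT libraries were close together, iaa32iaa34 lay below them, and tmk1 overlapped WT through 1 library. The log2 differences were -0.46 ± 0.21 in tmk1 and -0.53 ± 0.21 in iaa32iaa34, with limma adjusted p of 0.24 and 0.263. An antisense gene overlaps 23.6% of PCNA2 exon sequence, and the strand setting of the counting is not given in the sources used here. 

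The other S-phase genes were spread most widely in tmk1. The helicase subunit MCM3 ranged from 16.6 to 23.0 CPM in WT, 13.7 to 26.8 in tmk1 and 10.6 to 15.5 in iaa32iaa34. MCM5 ranged from 22.3 to 35.0, 18.3 to 33.9 and 17.5 to 21.6 CPM in the same order, and MCM7 from 25.2 to 34.2, 19.9 to 38.5 and 20.5 to 24.6. The clamp PCNA1 ranged from 12.8 to 16.1, 10.5 to 19.5 and 8.52 to 11.9 CPM. In each of these 4 genes the iaa32iaa34 libraries lay below the WT libraries. CYCA3;1, an S-phase A-type cyclin, was the lowest S-phase gene, at 3.84 to 5.20 CPM in WT and 2.23 to 4.26 in iaa32iaa34, and these ranges overlapped.

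Among mitotic genes, CYCA2;3 (AT1G15570), an A-type cyclin that partners CDKB1;1 and restrains endoreduplication, had the smallest p of all members in iaa32iaa34. It was at 18.4, 19.8 and 14.9 CPM in WT, 11.8, 15.2 and 11.3 in tmk1, with 11.8, 9.93 and 8.31 in iaa32iaa34. The WT and iaa32iaa34 libraries did not overlap, and 1 tmk1 library exceeded the lowest WT library. The log2 difference was -0.77 ± 0.18 in iaa32iaa34 (limma adjusted p = 0.136) and -0.44 ± 0.18 in tmk1 (adjusted p = 0.191). 

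CYCB2;4 (AT1G76310) was at 8.82, 12.7 and 6.49 CPM in WT, 5.04, 8.93 and 6.18 in tmk1, with 3.88, 6.56 and 4.20 in iaa32iaa34. Its groups overlapped, in iaa32iaa34 by a single library. With -0.80 ± 0.27 it had the largest log2 difference of the 39 genes in iaa32iaa34, and its limma adjusted p was 0.213. In tmk1 its difference was -0.41 ± 0.27 (limma adjusted p = 0.411). CYCB2;3 (AT1G20610) was at 10.7, 8.85 and 7 CPM in WT, 5.65, 8.24 and 6.76 in tmk1, with 5.02, 7.09 and 5.74 in iaa32iaa34, again with 1 overlapping library in iaa32iaa34. Its difference there was -0.50 ± 0.20 (limma adjusted p = 0.264), and in tmk1 -0.32 ± 0.20 (limma adjusted p = 0.386). Of its 50-base words, 17.3% are shared with another gene model.

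The other mitotic genes did not all stand equally low. The kinases CDKB1;1 and CDKB2;2, the plant-specific CDKs of G2 and M, lay below every WT library in all 3 iaa32iaa34 libraries, as did CYCB2;1 and CYCB2;2. CDKB1;1 ranged from 6.46 to 10.6 CPM in WT, 4.43 to 8.83 in tmk1 and 5.30 to 6.34 in iaa32iaa34, and CDKB2;2 from 7.42 to 9.01, 6.40 to 9.73 and 4.63 to 6.82. CYCB2;2 ranged from 5.03 to 6.82 CPM in WT, 3.53 to 10.0 in tmk1 and 3.6 to 4.52 in iaa32iaa34. The B1 cyclins, the kinases CDKB1;2 and CDKB2;1, AUR1 and the CDC20 genes overlapped WT in both mutants. CYCB1;2 ranged from 12.4 to 18.1 CPM in WT, 8.95 to 23.8 in tmk1 and 9.77 to 14.5 in iaa32iaa34. CDKB2;1 ranged from 16.3 to 21.8, 13.3 to 22.9 and 13.3 to 18.6 CPM in the same order. KNOLLE (AT1G08560) overlapped WT as well, and was at 31.7, 35.7 and 23.8 CPM in WT and at 22.9, 26.9 and 26.5 in iaa32iaa34. AUR2 was at 4.82, 7.71 and 6.74 CPM in WT and at 7.20, 5.68 and 7.54 in iaa32iaa34. Antisense genes overlap 33.5% of KNOLLE and 36.9% of AUR2 exon sequence. CDC20.1 and CDC20.2, activators of the anaphase-promoting complex, share 31.4% and 34.0% of their 50-base words, so the split of reads between them is uncertain.

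**Figure D3:**
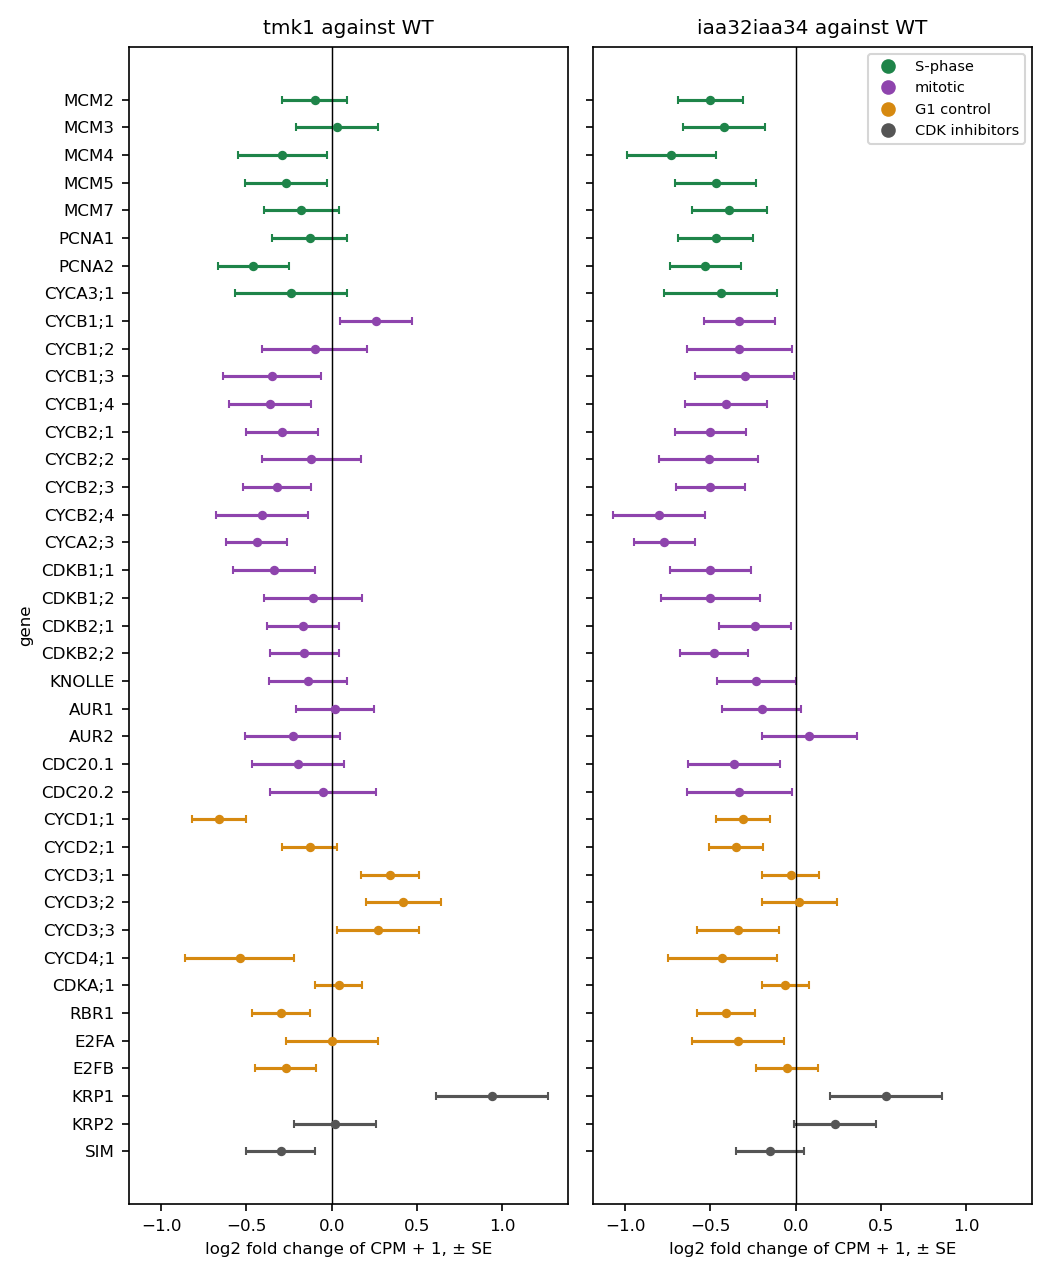
Log2 fold change of CPM + 1 (x axis, points with ± SE from the model on 9 libraries) for each gene (y axis) in tmk1 and in iaa32iaa34, both against the same WT libraries; colours are gene classes. In iaa32iaa34 the 8 S-phase points lie between -0.73 and -0.39, and in tmk1 KRP1 (0.94) and CYCD1;1 (-0.66) lie farthest from 0.

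In tmk1 the S-phase and mitotic genes had lower means in 23 of 26 cases, with medians of -0.21 and -0.19 (all genes -0.063, with 58.1% of genes below 0). No member of either class was below every WT library, which was so for 18.9% of all genes. The libraries disagreed: in 26 of 26 genes tmk1 replicate 2 was the highest of its genotype, and in 22 it was above the WT mean. Replicates 1 and 3 were below every WT library in 22 and 17 genes. Without replicate 2 the tmk1 medians were -0.49 for S-phase and -0.45 for mitotic genes, and without replicate 1 they were 0.03 and -0.05. The tmk1 values therefore depend on which library is counted. Replicate 2 was also the shallowest library by the inferred totals, at 10077093 reads. Whether depth had a part in this was not tested.

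As a mean over genes, the 8 S-phase genes stood at -0.02, 0.17 and -0.15 log2 units from the WT mean in WT, at -0.63, 0.32 and -0.30 in tmk1, then at -0.51, -0.35 and -0.61 in iaa32iaa34. The 18 mitotic genes stood at 0.01, 0.24 and -0.24 in WT, at -0.51, 0.27 and -0.34 in tmk1, then at -0.50, -0.26 and -0.44 in iaa32iaa34. For both classes iaa32iaa34 lay below every WT library and tmk1 spanned the WT range. The iaa32iaa34 mean was -0.49 ± 0.13 (SD, n = 3 libraries) for S-phase and -0.40 ± 0.13 for mitotic genes. On the scale of CPM + 1 these are 0.71 and 0.76 of WT. The corresponding tmk1 means were -0.20 ± 0.49 and -0.19 ± 0.41.

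S-phase and mitotic genes did not separate by genotype. Their difference within a library was -0.03, -0.06 and 0.09 log2 units in WT, -0.13, 0.06 and 0.04 in tmk1, with -0.01, -0.10 and -0.17 in iaa32iaa34. Group means were -0.01 ± 0.10 in tmk1 and -0.09 ± 0.08 in iaa32iaa34, against a WT spread of 0.08 (SD, n = 3 libraries), so the classes differed by about the spread between libraries. After removing genotype means, pairs of S-phase genes had a median Pearson r of 0.85 over the 9 libraries, mitotic pairs 0.71, and pairs of 1 S-phase and 1 mitotic gene 0.74. Without tmk1 replicate 2 these medians were 0.68, 0.48 and 0.50. These values describe genes read from the same libraries.

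**Figure D4:**
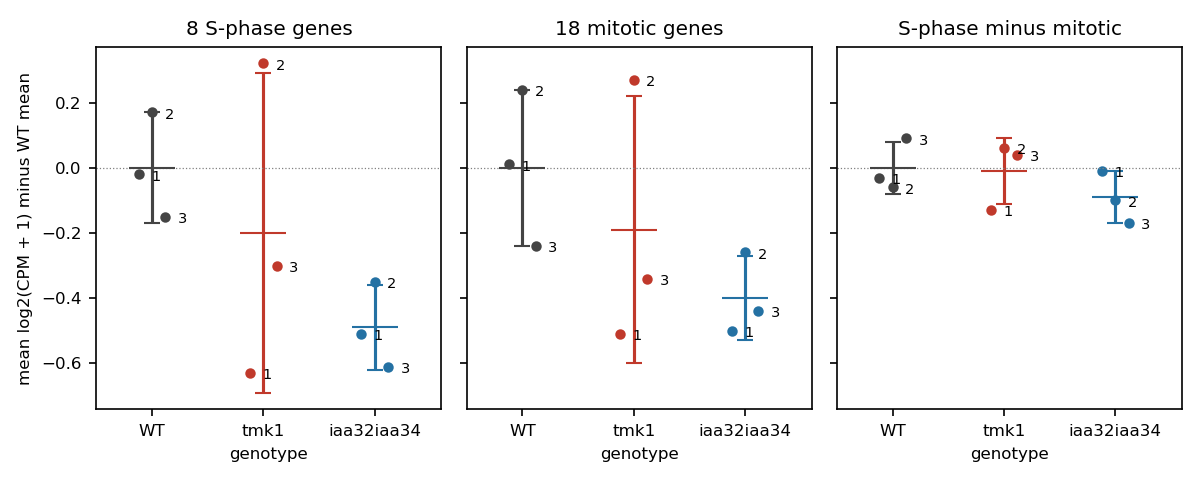
Mean log2(CPM + 1) minus the WT mean (y axis) over the 8 S-phase genes, the 18 mitotic genes, and the difference between them, by genotype (x axis); points are libraries with their replicate number, bars are mean ± SD of 3 libraries. The iaa32iaa34 points lie below all WT points in the first and second panels, tmk1 replicate 2 lies above them, and in the difference panel the genotypes overlap.

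The same spread showed between libraries that share a replicate number, though the labels do not say what a number marks. Between libraries numbered 1, 2 and 3 the median log2 difference of iaa32iaa34 from WT was -0.52, -0.49 and -0.43 for the S-phase genes, and -0.57, -0.41 and -0.12 for the mitotic genes. For tmk1 the S-phase medians were -0.59, 0.19 and -0.12, and the mitotic medians -0.55, 0.01 and -0.12. All 3 medians were below 0 in both classes for iaa32iaa34, while for tmk1 those at number 2 were above 0.

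G1 control genes were mixed in tmk1. CYCD1;1 (AT1G70210), a D-type cyclin, was at 121, 101 and 101 CPM in WT, 62.1, 70.8 and 69.6 in tmk1, with 84.1, 105 and 72.8 in iaa32iaa34. All tmk1 libraries were below all WT and all iaa32iaa34 libraries. Its log2 difference from WT was -0.66 ± 0.16 in tmk1 (limma adjusted p = 0.0786), the smallest adjusted p of any member, and -0.31 in iaa32iaa34 (adjusted p = 0.349). Between the mutants it was -0.35 (adjusted p = 0.608). Limma on the 6 tmk1 and WT libraries alone gave an adjusted p of 0.0375, and leaving out iaa32iaa34 replicate 2 gave 0.0314. In those fits 620 and 704 of all 16383 genes passed.

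The D3 cyclins, which sustain division in young organs and respond to cytokinin, had the opposite sign in tmk1. CYCD3;1 (AT4G34160) was at 26.6, 25.7 and 18.3 CPM in WT against 28.0, 34.4 and 27.1 in tmk1, and CYCD3;2 (AT5G67260) was at 71.3, 66.1 and 46.3 in WT against 79.9, 81.6 and 82.0 in tmk1. Every tmk1 library was above every WT library for both, as for 11.5% of all genes, with log2 differences of 0.34 ± 0.17 and 0.42 ± 0.22 (limma adjusted p = 0.274 and 0.285). In iaa32iaa34, CYCD3;1 was at 24.4, 20.7 and 23.3 CPM and CYCD3;2 at 82.3, 45.7 and 61.0, and both overlapped WT. CYCD3;1 and CYCD3;2 were picked for these sentences after their values were seen. Of the 6 D cyclins, 3 had a lower and 3 a higher mean in tmk1, and CYCD3;3, among the latter, ranged from -0.03 to 0.43 over the alternative settings.

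CYCD2;1 (AT2G22490) was at 19.1, 15.5 and 17.2 CPM in WT, 15.6, 14.6 and 16.5 in tmk1, with 11.8, 16.8 and 11.8 in iaa32iaa34. Its groups overlapped, with a log2 difference of -0.35 ± 0.16 in iaa32iaa34 (limma adjusted p = 0.321) and -0.13 ± 0.16 in tmk1 (adjusted p = 0.675). RBR1 (AT3G12280) was at 55.5, 62.0 and 46.8 CPM in WT, 40.8, 52.1 and 39.8 in tmk1, with 43.0, 46.2 and 34.1 in iaa32iaa34. The iaa32iaa34 libraries were all below WT, with a difference of -0.41 ± 0.17 (limma adjusted p = 0.271). In tmk1 the RBR1 difference was -0.30 ± 0.17 (limma adjusted p = 0.323), and its libraries overlapped WT. CDKA;1, the kinase the D cyclins act through, stayed between 63.7 and 82.5 CPM in all 9 libraries. The activating factor E2FA ranged from 4.1 to 5.73 CPM in WT, 2.78 to 7.84 in tmk1 and 3.46 to 3.88 in iaa32iaa34, below WT in the last. E2FB ranged from 6.82 to 8.91, 5.82 to 6.65 and 5.83 to 8.71 CPM in the same order, below WT in tmk1. CYCD4;1 lay between 4.18 and 4.55 CPM in WT and spread from 1.30 to 4.76 in tmk1 and from 1.99 to 4.52 in iaa32iaa34.

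Some of these regulators followed the replication and mitotic genes from library to library and others did not. After removing genotype means, CYCD3;3, CYCD4;1, E2FA and RBR1 had Pearson r of 0.93, 0.83, 0.82 and 0.80 with the mean of the 26 genes over 9 libraries. CYCD3;1 had 0.61, CYCD1;1 0.39, E2FB 0.22, CYCD3;2 0.05, CYCD2;1 -0.06 and CDKA;1 -0.28. Of the 10 G1 genes, CYCD3;3 and RBR1 were those with an E2F core in the 250 bases before their start. CYCD4;1 and E2FA, with r values as high as that of RBR1, had no E2F core there. All of these r values share the 9 libraries, tmk1 replicate 2 among them.

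The inhibitors differed among themselves. KRP1 (AT2G23430) was at 5.82, 6.82 and 3.67 CPM in WT, 15.1, 6.45 and 13.6 in tmk1, with 9.37, 5.32 and 10.5 in iaa32iaa34. Replicates 1 and 3 of both mutants were above every WT library and replicate 2 was within the WT range. The log2 difference was 0.94 ± 0.33 in tmk1 (limma adjusted p = 0.149) and 0.53 in iaa32iaa34 (adjusted p = 0.438). Leaving out the 3 libraries numbered 2, a choice made after seeing these values, gave 1.44 ± 0.23 and a limma adjusted p of 0.0362 in tmk1. In that fit 422 of all 16383 genes passed. KRP1 had an r of -0.55 with the mean of the S-phase and mitotic genes over the 9 libraries.

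KRP2 (AT3G50630) was at 32.8, 46.0 and 57.9 CPM in WT, 36.8, 50.8 and 49.1 in tmk1, with 48.1, 42.7 and 69.5 in iaa32iaa34. SIM (AT5G04470) was at 81.5, 87.5 and 115 CPM in WT, 65.9, 91.1 and 73.4 in tmk1, with 72.8, 75.0 and 109 in iaa32iaa34. For both inhibitors the genotypes overlapped. The log2 difference of KRP2 was 0.02 ± 0.24 in tmk1 and 0.23 ± 0.24 in iaa32iaa34, and that of SIM was -0.30 ± 0.20 and -0.15 ± 0.20, with limma adjusted p of 0.42 to 0.968. 0.968. The sign of the KRP2 difference in tmk1 changed when single libraries were left out. An antisense gene overlaps 31.4% of SIM exon sequence.

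**Figure D5:**
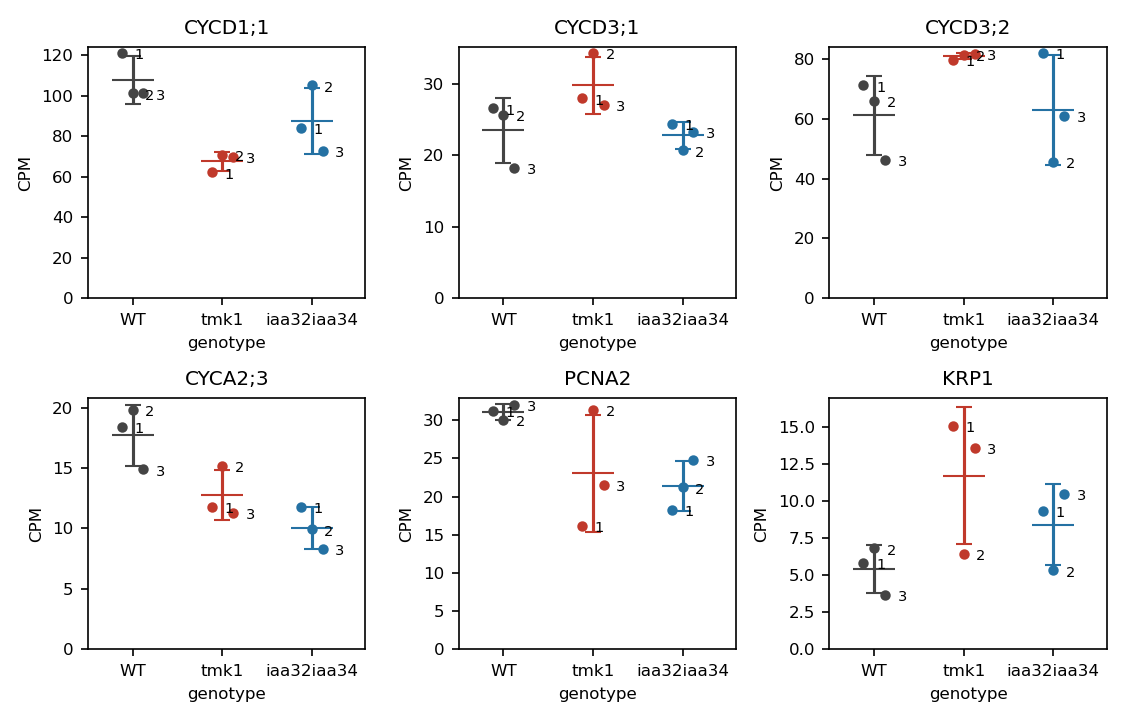
CPM (y axis, from 0) of 6 genes by genotype (x axis); points are libraries with their replicate number and bars are mean ± SD of 3 libraries. CYCD1;1 is lower in all tmk1 libraries (62.1 to 70.8) than in WT (101 to 121), CYCD3;1 and CYCD3;2 are higher, and KRP1 in tmk1 splits between 6.45 in replicate 2 and 13.6 to 15.1 in the others.

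Directly compared, tmk1 had higher means than iaa32iaa34 for 24 of the 26 S-phase and mitotic genes, with a median over the 39 genes of 0.21 (all genes 0.013, with 47.9% of genes below 0). Without tmk1 replicate 2 that median was -0.02, with 12 of the 26 genes higher in tmk1. CYCB1;1 (AT4G37490), named after its values were seen, was at 2.78, 4.66 and 3.46 CPM in tmk1 and 1.99, 2.13 and 1.97 in iaa32iaa34. Its log2 difference of 0.59 ± 0.21 had a limma adjusted p of 0.545. The libraries of the mutants did not overlap, as for 7.1% of all genes in this direction and 6.16% in the other.

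Beyond the listed genes, 69 further cell cycle genes were measured and none passed the limma threshold. Among 23 other replication genes, 22 had a lower mean in iaa32iaa34, with a median of -0.37, and 19 in tmk1, with a median of -0.18. Among 18 other mitotic genes, 17 were lower in iaa32iaa34 (median -0.37) and 14 in tmk1 (median -0.23). The 28 other regulators were a mixed list of D cyclins, kinases, inhibitors, transcription factors, activators of the anaphase-promoting complex and others. They had medians of -0.08 in both mutants, near the median of all genes. Of the 28, 19 had a lower mean in iaa32iaa34 and 23 in tmk1, beside 58.2% and 58.1% of all genes. By direction alone, the replication and mitotic lists were thus not set apart from these regulators in tmk1. CCS52A1, an activator of the anaphase-promoting complex that promotes endoreduplication, was at 20.5, 17.4 and 15.4 CPM in WT against 11.1, 12.5 and 10.9 in tmk1, a log2 difference of -0.58 ± 0.16 (adjusted p = 0.0981). RNR2A, a ribonucleotide reductase subunit that supplies deoxynucleotides, had a higher mean, at 6.37, 4.63 and 5.03 CPM in WT against 7.47, 10.3 and 9.04 in tmk1 (adjusted p = 0.0981). ORC1A, of the origin recognition complex, was at 3.55, 3.98 and 3.16 CPM in WT and 0.852, 2.13 and 0.685 in iaa32iaa34, with -1.09 ± 0.28 (adjusted p = 0.148). These 3 were named after their values were seen.

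Genes listed as markers of other tissues were read beside these results. Of 16 genes of the shoot meristem and leaf primordia, 9 were measured, and their summed level was 470 to 541 CPM for WT, 432 to 478 for tmk1 and 457 to 509 for iaa32iaa34. None of the 9 was at 0, and the meristem genes STM, WUS and CLV3 were among the 7 not analysed here. AS1 and KNAT1 made up the largest parts of the sum, so it can hide single genes. KNAT6 was at 38.0 to 47.7 CPM in WT and 22.2 to 26.5 in tmk1. AN3 was at 46.6 to 63.1 CPM in WT and 63.8 to 66.8 in iaa32iaa34. KNAT6 and AN3 were named after their values were seen. All 15 photosynthesis genes listed as cotyledon markers were measured, with sums of 4719 to 7832 CPM in WT and 15125 to 17189 in tmk1. The seedlings were dark-grown and the hooks cut without cotyledons. Whether the sums of these genes reflect tissue or gene regulation was not tested. In iaa32iaa34 replicates 1, 2 and 3 these sums were 19140, 8020 and 17709 CPM, so replicate 2 was close to WT. In that replicate the S-phase mean was -0.35, the nearest to WT of its genotype. In tmk1 replicates 1, 2 and 3 the sums were 17189, 15125 and 15658 CPM, all above every WT library. Replicate 2 thus had the lowest sum of its genotype, and its S-phase mean was 0.32, the highest of the 9 libraries. The part of tissue makeup in the cell cycle values was not tested.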

How the data were processed

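Values were 1 deposited table of CPM (read counts scaled to a library total by the authors) for 16383 genes in 9 libraries. Per the submitters' processing notes, HISAT and HTSeq were used; the sources used here do not give versions, build, annotation or strand setting. Each of the 16383 genes exceeded 1 CPM in 3 or more libraries, and genes of lower level are not analysed here. Low values were multiples of 1 step, used here only to describe depth, and no count model was fitted.

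The labels gave genotypes and replicate numbers. Values were transformed as log2(CPM + 1), with a pseudocount of 1, which understates changes of low genes. All 9 libraries entered limma 3.58.1 (R 4.3.3; lmFit, eBayes with trend), with 3 two-sided comparisons. P-values were adjusted by Benjamini-Hochberg across the 16383 genes (threshold 0.05). The fit was tested only on simulated data in which genes varied independently, unlike the genes here that move together within a library. Errors of CPM are SDs over 3 libraries. Alternatives were 2 pseudocounts, a level filter, 2 scalings, no trend, a replicate block, 6 libraries only, and leaving out each library. Deviations from the genotype mean had r of 0.53, 0.13 and 0.14 between same-numbered tmk1 and WT libraries. Between same-numbered iaa32iaa34 and WT libraries r was 0.35, -0.40 and 0.46. Libraries with different numbers reached 0.3 (tmk1 and WT) and 0.47 (iaa32iaa34 and WT). These values do not settle whether a number pairs libraries, and the labels do not say what it marks.

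Members and other gene lists were drawn up by function, but with earlier results of these data known, so the choice was not blind to the data. Full values are given for the 3 members of each class with the smallest p in either mutant. Promoters came from TAIR10.1, 250 bases before the gene start, where 16240 of the identifiers were found.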

Additional observations from a re-analysis of the deposited data

How the results depend on the processing

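No member passed the threshold in iaa32iaa34 against WT or between the mutants under any alternative run. In tmk1 against WT, 1 member passed with only the 6 libraries compared (CYCD1;1) and 1 without the 3 libraries numbered 2 (KRP1, log2 difference 1.44). When single libraries were left out, 0 to 1 passed (CYCD1;1, without iaa32iaa34 replicate 2). In the settings with a call, 620, 422 and 704 of all 16383 genes passed, in that order. CYCD1;1 kept a lower level in tmk1 in all 18 alternatives, with limma adjusted p of 0.0314 to 0.265.

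The median of the 39 genes in tmk1 against WT ranged from -0.40 without tmk1 replicate 2 to -0.00 without tmk1 replicate 1. Between the mutants it ranged from -0.02 to 0.37 when single libraries were left out. In iaa32iaa34 against WT, 25 or 26 of the 26 S-phase and mitotic genes stayed lower under each alternative that kept all 26, and 23 of 24 with the level filter.

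Counts over all genes moved more. For tmk1 against WT, 52 genes were called, and 31 with a pseudocount of 0.25, 34 with a mean CPM of at least 3, 32 with TMM scaling, 31 with median-of-ratios scaling, 620 with 6 libraries and 422 without the libraries numbered 2. Leaving out single libraries gave 6 (WT replicate 3, tmk1 replicate 1) to 704 (iaa32iaa34 replicate 2), with 166 without tmk1 replicate 2 and 174 without iaa32iaa34 replicate 1. For iaa32iaa34 against WT, 25 were called, 12 with 6 libraries, 477 without the libraries numbered 2, and 5 (WT replicate 2, iaa32iaa34 replicate 1) to 645 (iaa32iaa34 replicate 2) without single libraries. Of the other cell cycle genes, 0 to 1 passed there (ORC1A, without iaa32iaa34 replicate 2). Between the mutants 9 were called, 3 with 6 libraries and 3 to 8 without single libraries. With the replicate block, 323 genes were called in tmk1 against WT and 11 in iaa32iaa34 against WT, and no member's call changed. The cause of these shifts was not tested.

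In at least 1 of the 18 alternatives the sign changed for 16 of the 39 members in tmk1 against WT, 5 in iaa32iaa34 against WT (AUR2, CDKA;1, CYCD3;1, CYCD3;2 and E2FB) and 17 between the mutants. Of the 12 members with the smallest p in their class, signs changed for MCM2 in tmk1 against WT (-0.32 to 0.06 over the libraries left out, highest without tmk1 replicate 1) and for KRP2 there (-0.19 without WT replicate 1 to 0.21 without WT replicate 3, -0.06 and -0.04 without tmk1 replicates 2 and 3, -0.04 without the libraries numbered 2). Between the mutants they changed for PCNA2 (-0.18 without tmk1 replicate 2 and without the libraries numbered 2, -0.04 without iaa32iaa34 replicate 1, at most 0.28), RBR1 (-0.02 without tmk1 replicate 2 or iaa32iaa34 replicate 3, at most 0.19) and SIM (0.04 without iaa32iaa34 replicate 3, -0.27 without tmk1 replicate 2, and -0.36 without the libraries numbered 2). Leaving out the libraries numbered 2 was added after seeing the data. Planned count models on reads recovered from the CPM steps were not run. At 3 libraries a genotype, differences near the medians given here were not called, and low genes such as CYCB2;1 rest on few reads.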
